A study of Mus musculus with 15 samples.

Results

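Class D is one of the classes into which the study's authors sorted 560 genes that were higher in chromatin RNA of mouse macrophages after lipid A. It held 97 genes whose chromatin RNA climbed over the time course. The 69 genes described here are those left after symbols with set first letters (such as Ccl, Cxcl, Il, If, Ir, Gbp, Nfkb, Tn, Tlr, Clec, Dusp, Zfp, Slc and Rab) and single genes such as Birc3, Socs3, Csf1 and Hif1a were set aside. The choice went by symbol and not by function, so interferon-linked genes such as Isg15 and zinc finger genes such as Hivep2 are among the 69. The table of all transcripts listed 10020 entries, and all 69 genes were found in it, 59 by the same accession and 10 by symbol under another isoform. Because chromatin RNA set the class, the chromatin values below are a description with no test.

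The cells were bone marrow-derived macrophages of C57BL/6 mice of mixed sex, grown from marrow with the growth factor M-CSF. Stimulated cells had 15, 30, 60 or 120 min with lipid A at 100 ng/ml, the lipid end of bacterial endotoxin, which Toll-like receptor 4 senses. Cells at 0 min were unstimulated. At each time, RNA was taken from the cytoplasm, the nucleoplasm (the soluble content of lysed nuclei) and the chromatin pellet, which gave 15 libraries, 1 per fraction and time. Nothing in the labels says whether times were separate cultures, and with a single library each, differences between times were not checked by replicates.

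Lipid A binding to Toll-like receptor 4 switches on NF-kappaB and MAP kinases within minutes and, through a second adaptor, interferon regulatory factors and an autocrine interferon loop. Genes answer in waves. RNA bound to chromatin is mostly unfinished or unprocessed transcript, and it passes through the nucleoplasm to the cytoplasm once introns are removed and the end is cleaved. The class D genes serve many later tasks of an activated macrophage: kinases and adaptors of innate signalling, adhesion molecules, matrix proteases, antiviral enzymes, small GTPases and stress proteins.

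The authors' table gives each gene a promoter type, CpG for 40 of the 69 genes and LCG for 29. Promoter sequences (250 bases before to 50 after the start, RefSeq, build GRCm38.p6) were found for 55 genes, 30 CpG and 25 LCG. The 250 bases before the start are printed below for the 2 genes of each type with the largest chromatin ratio among those with an entry, because they show how unlike the promoters of 1 class are. Capitals mark matches, on either strand, to GGG, any 5 bases and CC (kappaB-like), to GAAA, any 2 bases and GAAA (interferon response-like), or to TGANTCA (AP-1), TGACGTCA (CRE), TTGCNNAA (C/EBP-like) or TATAAA; matches to GGGCGG (Sp1) are counted but not marked.
Fnbp1l (chr3:122619715-122619964, minus strand): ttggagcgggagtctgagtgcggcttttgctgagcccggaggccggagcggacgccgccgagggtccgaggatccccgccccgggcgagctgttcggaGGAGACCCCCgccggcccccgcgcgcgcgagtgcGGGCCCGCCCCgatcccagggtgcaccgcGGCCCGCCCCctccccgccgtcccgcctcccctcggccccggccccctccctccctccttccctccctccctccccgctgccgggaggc
Stx11 (chr10:12964260-12964509, minus strand): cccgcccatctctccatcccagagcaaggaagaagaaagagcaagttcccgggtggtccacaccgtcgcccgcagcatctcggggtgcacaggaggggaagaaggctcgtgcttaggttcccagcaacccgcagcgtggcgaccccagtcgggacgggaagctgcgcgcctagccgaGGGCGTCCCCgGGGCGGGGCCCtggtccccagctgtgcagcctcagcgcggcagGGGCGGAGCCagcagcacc
Mmp13 (chr9:7272264-7272513, plus strand): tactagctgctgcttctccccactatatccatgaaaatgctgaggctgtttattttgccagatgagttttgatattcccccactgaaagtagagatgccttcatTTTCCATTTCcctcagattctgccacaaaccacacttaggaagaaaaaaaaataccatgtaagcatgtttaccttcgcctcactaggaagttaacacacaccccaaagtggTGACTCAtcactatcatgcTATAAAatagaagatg
Edn1 (chr13:42301226-42301475, plus strand): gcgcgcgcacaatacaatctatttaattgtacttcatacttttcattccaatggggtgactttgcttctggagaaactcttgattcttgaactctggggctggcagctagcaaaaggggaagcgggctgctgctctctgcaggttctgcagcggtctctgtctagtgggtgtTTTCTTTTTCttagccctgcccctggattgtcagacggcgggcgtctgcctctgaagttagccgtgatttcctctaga
Fnbp1l and Stx11 are CpG promoters with 4 kappaB-like matches each, some of them overlapping, and 3 Sp1 matches each. In both promoters some kappaB-like matches also overlap Sp1 matches, so the counts of the 2 motifs share bases. Mmp13 and Edn1 are LCG promoters. Mmp13 holds an interferon response-like match at -146, an AP-1 match at -35 and a TATAAA at -16, counted from the start. Edn1 holds an interferon response-like match at -78. A match is a run of letters and not a shown binding site.

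Over the whole 300-base windows, kappaB-like letters stood in 65.5% of the 55 class D promoters and in 50.4% of all 27025. By type they stood in 70.0% of CpG and 60.0% of LCG promoters. Their fixed letters are all G or C, and the part of base content in these shares was not tested. Interferon response-like letters stood in 5 of the 55 (9.1%, against 3.5% of all), all of them in the LCG type. AP-1 letters stood in 9.1% against 7.9%, CRE letters in 3.6% against 1.9%, C/EBP-like letters in 7.3% against 10.8% and TATAAA in 7.3% against 14.2%. Sp1 letters stood in 80.0% of CpG and 28.0% of LCG promoters, against 35.9% of all. The median ratio of observed to expected CpG was 0.81 in the CpG type and 0.38 in the LCG type, beside 0.39 over all promoters. The name of the CpG type points to these letters, so this describes the types and is no separate finding. The Sp1 letters hold a CG and are not independent of it. No test was made of these shares.

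The files' values are RPKM, read counts relative to the length counted and to library size. One table counts exons only and the other counts the whole gene, introns included. The libraries held 15.58 to 19.85 M reads in cytoplasmic, 24.45 to 31.42 M in nucleoplasmic and 38.77 to 52.33 M in chromatin RNA, and intervals given below cover counting error only. Of the macrophage markers, 8 of 8 were listed, with a summed level of 1213 to 2637 RPKM in cytoplasmic RNA. Of the markers of other cell types, 6 of 8 neutrophil genes (30.9 to 67.8 RPKM summed in cytoplasmic RNA), 2 of 6 T cell genes (8.45 to 26.1), 1 of 5 B cell genes (0.757 to 1.38), 1 of 5 stromal genes (0.0812 to 0.419), 0 of 5 dendritic cell and 0 of 4 erythroid genes were listed. By the 4-fold rule used below, 3 calls fell among them: the T cell gene Lck was higher in cytoplasmic RNA (3.24 RPKM at 120 min, against 0.091 RPKM at 0 min), the stromal gene Pdgfrb was higher in nucleoplasmic RNA (1.8 against 0.0435 RPKM) and the T cell gene Cd28 was lower in chromatin RNA (5.48 against 25.7 RPKM). Their part in the results was not tested. In bulk RNA, fewer cells of a type and less RNA per cell cannot be told apart. The median log2 ratio of all genes to 0 min moved with time. It lay between -0.47 and -0.07 in nucleoplasmic RNA and between -0.47 and -0.11 in chromatin RNA. In cytoplasmic RNA it was 0.04, 0.14, 0.39 and -0.49 at 15, 30, 60 and 120 min, and the listed exons took 44.17% of the reads at 60 min and 28.13% to 33.86% at the other times. The step from 60 to 120 min in cytoplasmic RNA therefore depends on scale, and values after rescaling, which subtracts this median from each library, are given where they change a statement.

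The shape that gives the class its place is a climb of the median in chromatin RNA, which not every gene followed to the end. Of the 69 genes, 41 had their highest whole-gene chromatin value at 120 min, 26 at 60 min and 2 at 30 min. As a share of each gene's highest whole-gene chromatin value, the median of the 69 genes was 8.88%, 15.5%, 44.9%, 73.9% and 100% at 0, 15, 30, 60 and 120 min. In class C (98 genes) the same medians were 7.02%, 41.4%, 100%, 64.1% and 56.5%. In class E (116 genes) they were 6.22%, 5.38%, 10.5%, 31.7% and 100%. Class D thus lay between a class that stood highest at 30 min and one that was still near its start at 30 min. These values set the classes and are not a finding. The smallest ratios of highest to 0 min chromatin value among the 69 genes were 5.2 for Nampt, 5.22 for 9030625A04Rik and 5.26 for Sbds, and the smallest among all 560 genes was 5.01.

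The climb was seen in all 3 fractions on exon values. A gene was called higher where its ratio to 0 min reached 4-fold at some time, on log2(RPKM + 0.5), among genes that reached 1 RPKM in that fraction. In cytoplasmic RNA 47 of 65 class D genes were higher (background 4.48% of 9239 genes), in nucleoplasmic RNA 57 of 67 (background 4.84% of 9317) and in chromatin RNA 61 of 69 (background 6.51% of 8881, a contrast the class was chosen on). None was lower by 4-fold in any fraction. Icam5 and Adhfe1 did not reach 1 RPKM in cytoplasmic or nucleoplasmic RNA, nor did Nox1 and Cd38 in cytoplasmic RNA. Without the 120 min library 31 cytoplasmic, 28 nucleoplasmic and 42 chromatin calls were left, and on whole-gene values 25, 36 and 55 genes were called.

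By class medians, chromatin RNA was ahead of the other 2 fractions, in genes that were chosen on chromatin RNA. At 15, 30, 60 and 120 min the class median log2 ratio was 0.05, 0.49, 1.85 and 2.63 in cytoplasmic RNA. Nucleoplasmic medians were 0.00, 0.41, 1.48 and 2.81 and chromatin medians 0.21, 1.22, 2.21 and 2.85. Of the change reached at 120 min, the median gene had at 30 min 23.2% in cytoplasmic (60 genes), 13.8% in nucleoplasmic (65 genes) and 44.8% in chromatin exons (69 genes), and 59.2% in whole-gene chromatin reads (67 genes). At 60 min these shares were 70.5%, 54.0%, 76.9% and 85.7%. Both chromatin shares were thus the highest at both times. Since chromatin RNA set the class and no such share was taken over all genes, this is a description and not a finding. The order of the other fractions depends on scale, since after rescaling the exon shares were 12.8%, 17.3% and 51.0% at 30 min and 48.7%, 52.2% and 83.6% at 60 min in cytoplasmic, nucleoplasmic and chromatin RNA.

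**Figure D1:**
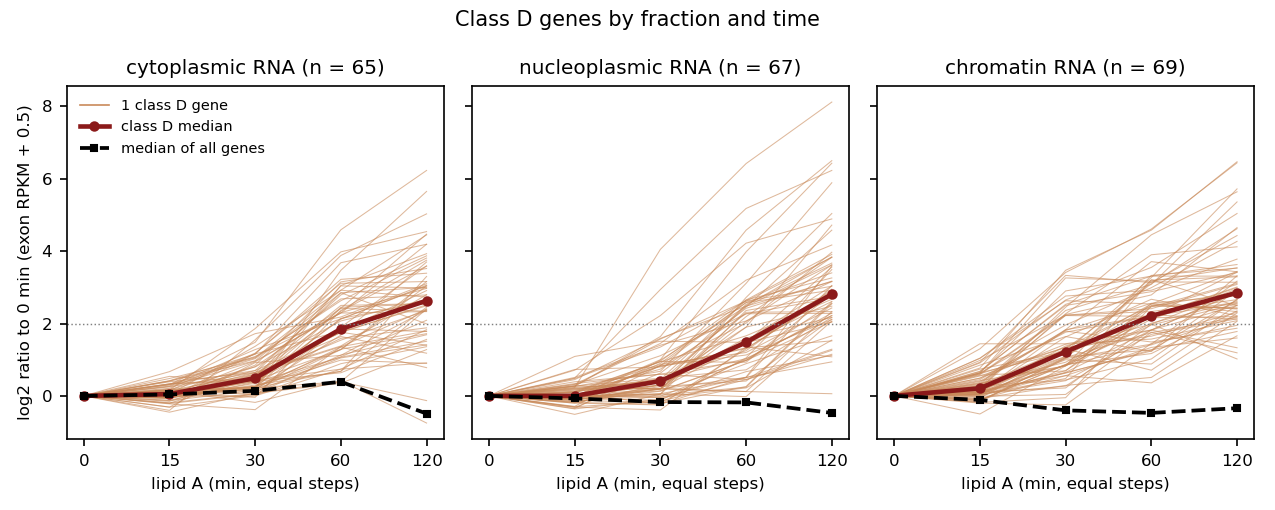
Log2 ratio of exon RPKM + 0.5 to the 0 min library of the same fraction (y) against time of lipid A in minutes (x, equal steps) in cytoplasmic, nucleoplasmic and chromatin RNA. Thin lines are single class D genes, the thick line their median, the dashed line the median of all genes and the dotted line 4-fold; the class median stands at 2.63, 2.81 and 2.85 at 120 min in the 3 panels, while the median of all genes is below 0.

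On exon values most class D genes were highest at the last time, in 54 of 65 genes in cytoplasmic RNA (background 9.16% of all genes), 65 of 67 in nucleoplasmic RNA (background 17.8%) and 57 of 69 in chromatin RNA (background 25.3%). After rescaling these were 63, 66 and 54 genes, with backgrounds of 30.2%, 32.6% and 29.6%. A value higher at each time than at the time before was seen in 32 genes in cytoplasmic RNA (background 3.41%), 26 in nucleoplasmic RNA (background 2.32%) and 37 in chromatin RNA (background 2.85%). A straight line was then fitted to log2(RPKM + 0.5) over the 5 time steps, with limma across all genes, in the 2 fractions that did not set the class. A rising slope at adjusted p under 0.05 was found for 49 of 65 class D genes in cytoplasmic RNA (background 2.93%) and for 39 of 67 in nucleoplasmic RNA (background 1.75%). The slope was above 0 in 64 of 65 and 67 of 67 genes. No class D gene fell. The calls rest on 5 unreplicated libraries a fraction, and the number depends on single libraries and on scaling. In cytoplasmic RNA 8 calls were left without the 120 min library (39 to 48 without each of the others) and 1, that of Ripk2, after libraries were rescaled to the median of all genes. In nucleoplasmic RNA 14, 2, 12, 0 and 13 calls were left by limma without the 0, 15, 30, 60 and 120 min library. There were 20 after rescaling, 65 with time in minutes (background 8.48%) and 0 with its square root. At an unadjusted limma p under 0.05, 65 class D genes rose without 60 min (background 9.38%) and 65 with the square root (background 8.03%). Arid5a, C3, Filip1l, Mt2, Ripk2, Rnd3 and Tiparp were called in cytoplasmic RNA with all libraries and without each one in turn; no gene was so in nucleoplasmic RNA. "Rose" below refers to this slope, given per time step on the log2 scale with its standard error, and is subject to these limits.

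**Figure D2:**
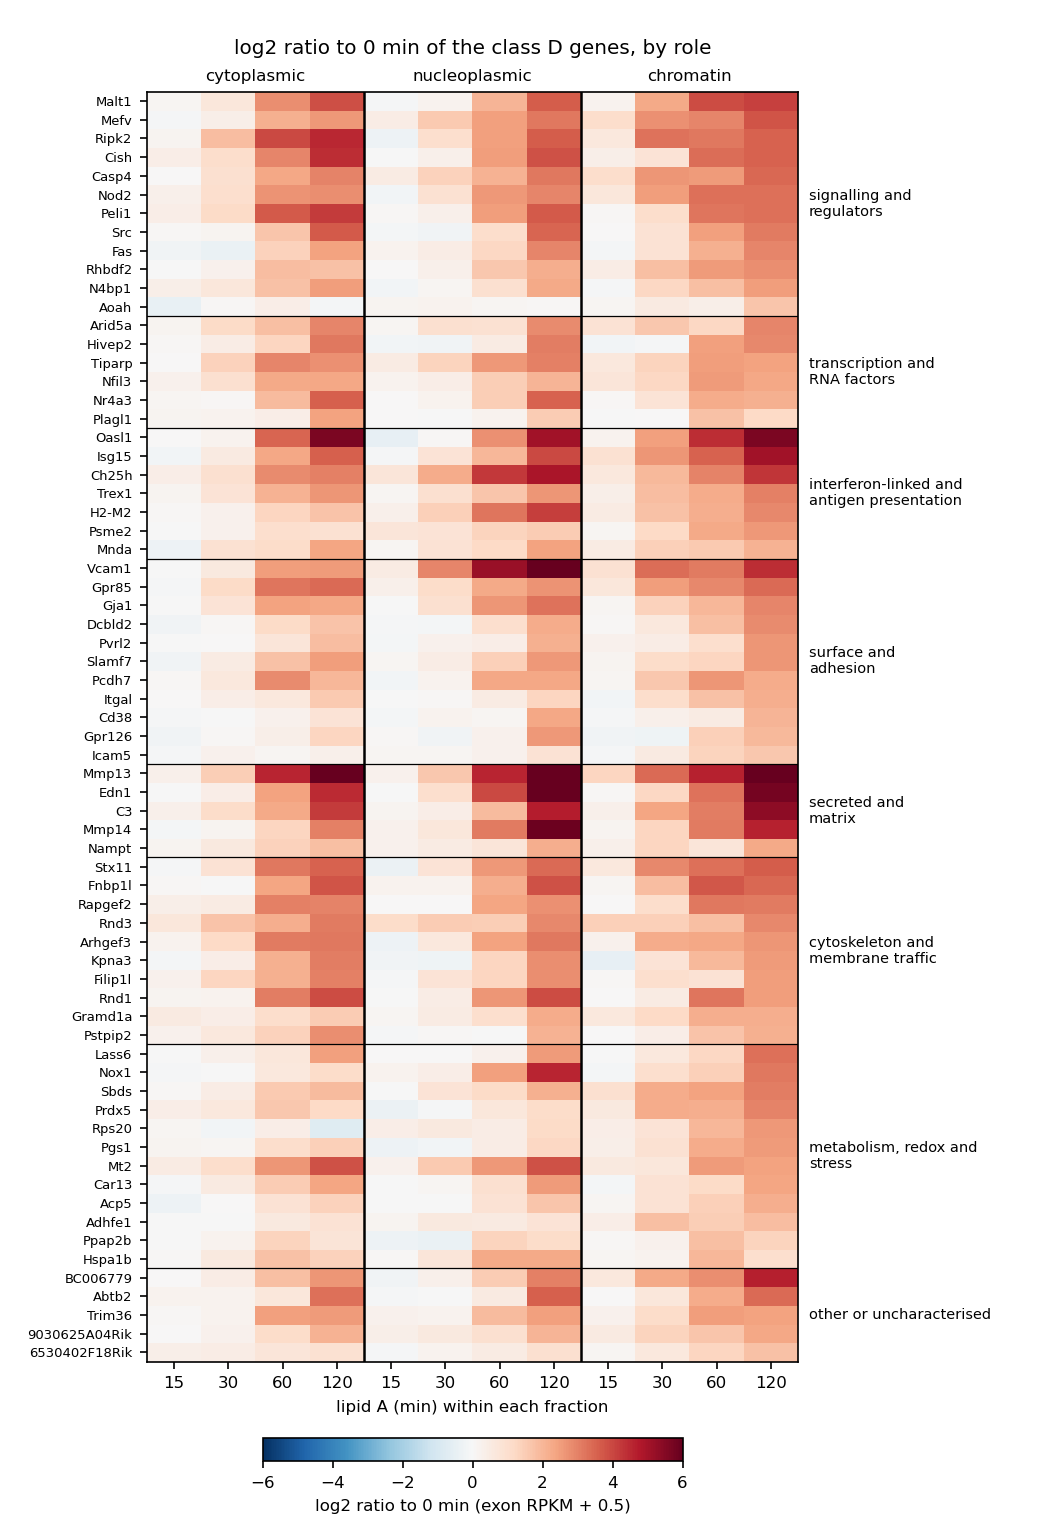
Heat map of the log2 ratio to 0 min (exon RPKM + 0.5; values above 6 are drawn in the darkest red) for 68 of the 69 class D genes in rows, grouped by role, with 15, 30, 60 and 120 min in columns within cytoplasmic, nucleoplasmic and chromatin RNA. Colour deepens from left to right within each fraction for most genes, most of all for the secreted and matrix genes and for Oasl1 and Vcam1, and stays pale in cytoplasmic RNA for many genes of metabolism.

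Of the 12 regulators of innate signalling, 11 rose in cytoplasmic RNA and 9 in nucleoplasmic RNA. Ripk2, the kinase that carries signals of the NOD receptors, had 4.12, 4.67, 16.2, 72.5 and 107.0 RPKM in cytoplasmic RNA at 0, 15, 30, 60 and 120 min. It had 5.45, 4.37, 11.4, 32.5 and 72.5 RPKM in nucleoplasmic RNA and 5.07, 8.14, 52.7, 49.7 and 64.5 RPKM in chromatin RNA. Its chromatin value was thus near its top by 30 min, when its cytoplasmic value was still far below those at 60 and 120 min. Its cytoplasmic slope was 1.29 ± 0.15 per step (limma adjusted p = 0.000118). Nod2, the bacterial muramyl peptide receptor upstream of Ripk2, had 0.514, 0.748, 1.57, 6.0 and 6.5 RPKM in cytoplasmic RNA and 0.875, 1.69, 7.44, 13.1 and 13.2 RPKM in chromatin RNA. After 60 min it changed little in chromatin RNA. In cytoplasmic RNA its log2 ratio was 2.68 at 60 min and 2.79 at 120 min, but 2.29 and 3.28 after rescaling, so a plateau there depends on scale. Both Nod2 and Ripk2 rose in cytoplasmic RNA.

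Peli1, a ubiquitin ligase of Toll-like receptor signalling, had 5.1, 6.98, 12.0, 71.3 and 101.4 RPKM in cytoplasmic RNA and 5.54, 5.75, 6.86, 34.4 and 76.1 RPKM in nucleoplasmic RNA. Malt1, a scaffold protease that feeds NF-kappaB, had 2.47, 2.69, 4.33, 20.1 and 43.1 RPKM in cytoplasmic RNA and 3.88, 4.55, 20.7, 64.9 and 75.7 RPKM in chromatin RNA. Cish, a feedback inhibitor of cytokine receptors, had 0.148, 0.359, 0.847, 4.4 and 13.7 RPKM in cytoplasmic RNA. All 3 were past 4-fold in cytoplasmic RNA by 60 min and were higher again at 120 min. Their cytoplasmic slopes were 1.16 ± 0.15, 1.04 ± 0.16 and 1.14 ± 0.15 (limma adjusted p = 0.000236, 0.000781 and 0.000224). Casp4, the mouse caspase-11 that senses cytosolic lipopolysaccharide, had 7.4, 10.7, 20.3, 32.6 and 70.0 RPKM in nucleoplasmic RNA, and Mefv, which encodes the inflammasome protein pyrin, had 0.351, 0.662, 2.06, 4.25 and 7.1 RPKM. These 2 were among the genes with the most even nucleoplasmic climb, at 0.79 ± 0.06 and 0.83 ± 0.07 per step (limma adjusted p = 0.0142 for each). The death receptor Fas, the kinase Src, the protease-like Rhbdf2, which carries the tumour necrosis factor sheddase, and N4bp1, an inhibitor of NF-kappaB activation, reached cytoplasmic log2 ratios of 1.78 to 3.7 at 120 min and also rose there.

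Aoah was the exception of the group. It encodes acyloxyacyl hydrolase, the enzyme that removes fatty acids from lipid A. It had 8.3, 5.93, 8.83, 11.1 and 7.57 RPKM in cytoplasmic RNA and 44.5, 49.7, 51.5, 48.4 and 46.5 RPKM in nucleoplasmic RNA, against 19.6, 21.7, 29.3, 25.4 and 63.1 RPKM in chromatin RNA. The 120 min chromatin value stood above all earlier ones, while the other 2 fractions ended close to where they began (log2 ratios of -0.13 in cytoplasmic and 0.06 in nucleoplasmic RNA, 0.37 and 0.54 after rescaling). Its slopes were 0.06 ± 0.14 and 0.01 ± 0.05 (limma adjusted p = 0.913 and 0.906). Aoah is one of the longest genes of the class, at 230129 bases.

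The secreted and matrix genes had the largest changes: 5 of 6 were higher by 4-fold in cytoplasmic RNA and 6 of 6 in nucleoplasmic and chromatin RNA, with a median log2 ratio at 120 min of 4.33, 6.16 and 5.54. Mmp13, a collagenase, had 0.48, 0.713, 2.22, 23.1 and 73.1 RPKM in cytoplasmic RNA, 6.6, 8.04, 21.6, 169.0 and 641.1 RPKM in nucleoplasmic RNA and 1.47, 4.34, 20.4, 47.8 and 171.2 RPKM in chromatin RNA. Its cytoplasmic slope, 1.67 ± 0.18, was the largest of the class (limma adjusted p = 4.56e-05). Mmp14, a membrane-bound protease that activates other matrix proteases, had 0.148, 0.0918, 0.22, 1.08 and 4.83 RPKM in cytoplasmic RNA and 0.151, 0.282, 0.543, 5.13 and 38.1 RPKM in nucleoplasmic RNA. Edn1, the precursor of the vasoconstrictor endothelin, had 0.1, 0.095, 0.704, 8.97 and 51.2 RPKM in nucleoplasmic RNA. Both proteases and Edn1 were still climbing between 60 and 120 min. Edn1 had 2435 chromatin exon reads at 120 min and 2 at 0 min, so its ratio of 1444 has a counting interval of 399 to 11930. C3, the central complement protein, had 0.738, 1.05, 2.14, 5.56 and 22.1 RPKM in cytoplasmic RNA and 13.5, 15.3, 17.8, 51.9 and 368.6 RPKM in nucleoplasmic RNA. Nampt, the enzyme of NAD salvage that is also released from cells, began high and changed least in the group, with 17.7, 19.7, 27.1, 46.2 and 62.5 RPKM in cytoplasmic RNA.

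**Figure D3:**
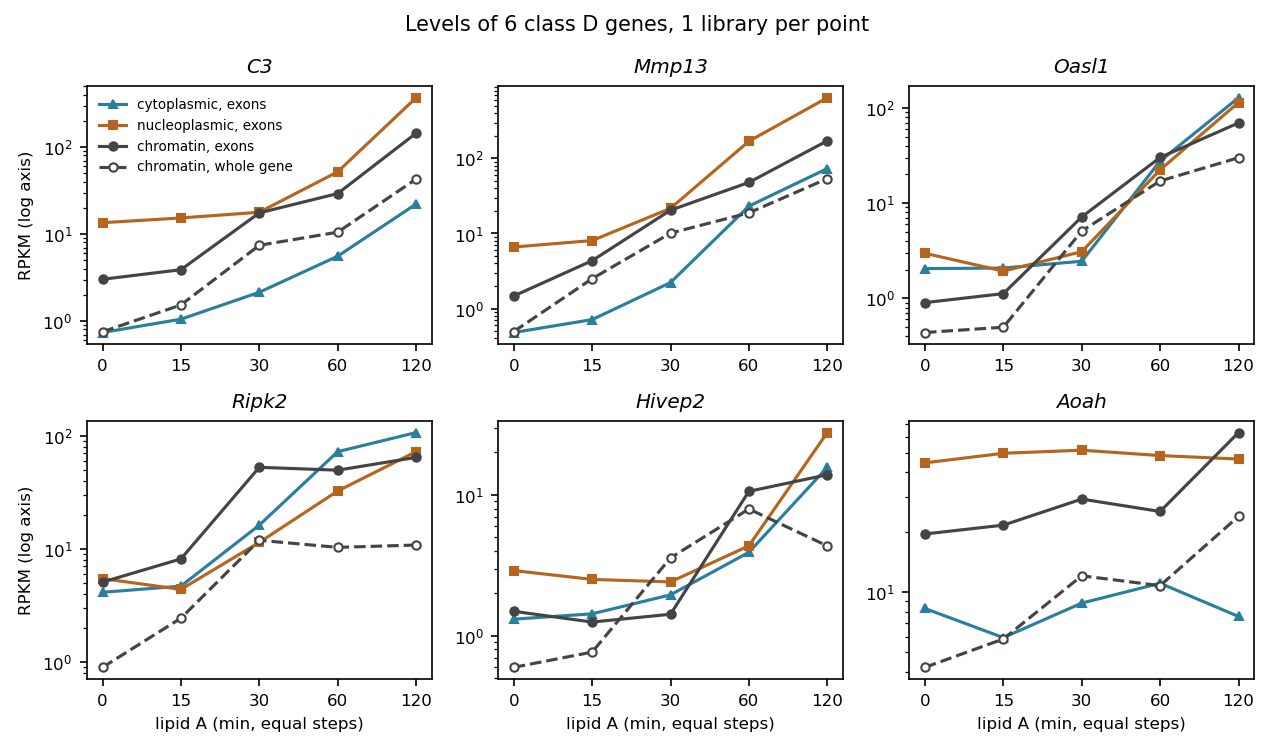
RPKM on a log axis (y) against minutes of lipid A (x, equal steps) for 6 class D genes, 1 library per point, with exon values of the 3 fractions as solid lines and whole-gene chromatin values dashed. C3 and Mmp13 climb in every fraction, Ripk2 and Hivep2 level off or turn down earlier in whole-gene chromatin reads than in the cytoplasm, and Aoah ends well above its start in chromatin RNA but near it in the other 2 fractions.

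Of the 7 interferon-linked and antigen presentation genes, 6 rose in cytoplasmic and 6 in nucleoplasmic RNA. Oasl1, a relative of the oligoadenylate synthetases that restrains translation of Irf7 in mice, had 2.05, 2.08, 2.45, 27.7 and 128.1 RPKM in cytoplasmic RNA. It had 0.901, 1.12, 7.16, 30.2 and 69.6 RPKM in chromatin RNA. Its cytoplasmic level stayed flat for 30 min and then made the second largest climb of the class, to a log2 ratio of 5.65. Isg15, the ubiquitin-like protein that interferons induce, had 9.08, 8.12, 13.6, 48.2 and 115.3 RPKM in cytoplasmic RNA. Ch25h, which makes the antiviral 25-hydroxycholesterol, had 0.142, 0.353, 0.762, 4.14 and 4.66 RPKM in cytoplasmic RNA and 0.696, 1.46, 5.09, 21.9 and 34.9 RPKM in nucleoplasmic RNA. The cytoplasmic log2 ratio of Ch25h was 2.85 at 60 min and 3.0 at 120 min (2.46 and 3.5 after rescaling). The nucleoplasmic slope of Ch25h, 1.33 ± 0.10, had the smallest p of the class beside Casp4 and Mefv (limma adjusted p = 0.0142). The nuclease Trex1 had the highest cytoplasmic level of the class at 120 min, 176.2 RPKM, against 27.3 RPKM at 0 min, but 95.6% of its transcript is shared with the annotated gene Atrip. The class Ib antigen gene H2-M2 reached a nucleoplasmic log2 ratio of 4.17 and Mnda, a gene of the PYHIN family, one of 2.43. Psme2, an activator subunit of the proteasome, rose in nucleoplasmic RNA (slope 0.36 ± 0.07, limma adjusted p = 0.0477; cytoplasmic adjusted p = 0.371); the difference between the fractions was not tested.

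Of the surface and adhesion genes, 5 of the 9 that passed the filter were higher in cytoplasmic RNA, 9 of 10 in nucleoplasmic RNA and 9 of 11 in chromatin RNA. Vcam1, a ligand of leukocyte integrins, had 0.227, 0.211, 0.589, 3.61 and 3.76 RPKM in cytoplasmic RNA. It had 0.277, 0.59, 5.45, 27.7 and 57.7 RPKM in nucleoplasmic RNA and 0.109, 0.658, 5.62, 4.84 and 12.7 RPKM in chromatin RNA. The nucleoplasmic log2 ratio was 5.18 at 60 min and 6.23 at 120 min, and the cytoplasmic one 2.5 and 2.55. After rescaling they were 5.36 and 6.7, and 2.11 and 3.04, so the cytoplasmic halt depends on scale. Pcdh7, a protocadherin, had 1.16, 1.21, 2.08, 11.5 and 6.06 RPKM in cytoplasmic RNA and 4.68, 5.08, 15.5, 32.5 and 23.7 RPKM in chromatin RNA. It stood highest at 60 min in both, although in cytoplasmic RNA its rescaled log2 ratio was 2.46 at 60 min and 2.48 at 120 min. Slamf7, a receptor of the signalling lymphocyte activation family, was the most abundant of the group, at 83.6 RPKM in cytoplasmic and 409.4 RPKM in nucleoplasmic RNA at 120 min, against 14.5 and 66.7 RPKM at 0 min. Cd38, an enzyme that breaks down NAD, and Icam5, an adhesion protein best known from neurons, stayed under 1 RPKM in every cytoplasmic library. Gja1 (the gap junction protein connexin 43), Gpr85, Slamf7, Vcam1 and Pcdh7 rose in cytoplasmic RNA. Dcbld2, Pvrl2 (nectin 2), Gpr126 and the integrin chain Itgal did not pass the test there, with slopes of 0.31 to 0.47.

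Of the 10 genes of the cytoskeleton and membrane traffic, 9 rose in cytoplasmic RNA and 7 in nucleoplasmic RNA. Rnd1 and Rnd3 are atypical small GTPases that loosen actin fibres. Rnd1 had 0.291, 0.379, 0.416, 6.06 and 11.6 RPKM in cytoplasmic RNA and 0.128, 0.147, 0.377, 5.31 and 3.02 RPKM in chromatin RNA. Rnd3 had 5.4, 8.88, 19.0, 26.2 and 50.1 RPKM in cytoplasmic RNA and 4.51, 13.1, 13.1, 17.2 and 36.0 RPKM in chromatin RNA. The 2 relatives differed in course: Rnd3 was already higher at 15 min, and Rnd1 changed little until 30 min and had turned down in chromatin RNA by 120 min. Fnbp1l, a membrane-bending protein that links to actin assembly, had 3.16, 3.33, 3.05, 18.2 and 48.7 RPKM in cytoplasmic RNA and 2.94, 3.2, 11.8, 44.6 and 36.5 RPKM in chromatin RNA. Stx11, a syntaxin of vesicle fusion, had 1.55, 1.47, 3.2, 17.7 and 23.1 RPKM in cytoplasmic RNA. These are the 2 CpG promoters printed above. Kpna3, an importin that carries proteins into the nucleus, reached 113.5 RPKM in the cytoplasm at the last time, against 13.2 RPKM before lipid A. The exchange factors Arhgef3 and Rapgef2 and the actin-linked Filip1l and Pstpip2 rose in cytoplasmic RNA too, while Gramd1a, a sterol transfer protein, had a slope of 0.36 ± 0.13 (limma adjusted p = 0.212).

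Among 6 factors of transcription and RNA control, 5 rose in cytoplasmic RNA and 2 in nucleoplasmic RNA. Hivep2, a zinc finger protein that binds kappaB sites, had 1.31, 1.43, 1.95, 3.91 and 15.7 RPKM in cytoplasmic RNA. Its chromatin exons had 1.49, 1.25, 1.42, 10.6 and 13.9 RPKM, whereas its whole gene of 184996 bases had 0.596, 0.765, 3.57, 7.94 and 4.34 RPKM in chromatin RNA. Whole-gene reads had thus gone up by 30 min, when exon reads had not. Tiparp, an ADP-ribosyltransferase, had 4.19, 4.32, 11.6, 35.0 and 30.5 RPKM in cytoplasmic RNA, and Nfil3, a bZIP repressor, had 2.74, 3.38, 5.8, 15.4 and 15.8 RPKM. The values at 60 and 120 min were close as deposited. After rescaling, the log2 ratio was 2.53 and 3.22 for Tiparp and 1.9 and 2.82 for Nfil3. Arid5a, which stabilises cytokine mRNAs, had 0.759, 0.898, 2.32, 3.86 and 8.98 RPKM in cytoplasmic RNA. The orphan nuclear receptor Nr4a3 had 1.72 RPKM in chromatin exons at 120 min and no reads there at 0 min. In the cytoplasm it had 6.76 RPKM at 120 min, against 0.102 RPKM in unstimulated cells. Plagl1, a zinc finger regulator of growth, was close to silent until 60 min in chromatin RNA (0.0165, 0.0145, 0.0316, 1.25 and 0.677 RPKM) and reached 2.27 RPKM in cytoplasmic RNA at 120 min without passing the test (adjusted p = 0.0688).

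Among the roles, metabolic, redox and stress genes changed least in the cytoplasm: 3 of 10 were higher by 4-fold there, and 3 rose. In the whole class 47 of 65 were higher there (background 4.48%). In chromatin RNA, on which the class was chosen, 9 of 12 of the group were higher. Mt2, a metallothionein that binds zinc and copper, had 4.85, 6.97, 10.7, 32.5 and 74.6 RPKM in cytoplasmic RNA and 1.37, 2.27, 2.52, 10.4 and 9.37 RPKM in chromatin RNA. Prdx5, a peroxiredoxin, had 54.0, 70.8, 84.8, 169.2 and 122.6 RPKM in cytoplasmic RNA and 5.34, 8.3, 26.8, 26.4 and 46.1 RPKM in chromatin RNA. Prdx5 was therefore abundant at rest in the cytoplasm, and its 120 min log2 ratio was 1.18 there beside 2.99 in chromatin RNA. Nox1, a catalytic subunit of NADPH oxidase, had 0.0464, 0.132, 0.214, 2.51 and 12.6 RPKM in nucleoplasmic RNA but no more than 0.655 RPKM in cytoplasmic RNA. Lass6, a ceramide synthase, had 25.4, 25.9, 25.8, 30.1 and 150.6 RPKM in nucleoplasmic RNA. It is the longest gene of the class, at 249728 bases, and its exon level in the nucleoplasm did not move before 120 min. Car13, a carbonic anhydrase, and Sbds, a factor of ribosome maturation, rose in cytoplasmic RNA; Acp5, Pgs1, Ppap2b and Hspa1b did not pass the test, with slopes of 0.29 to 0.45. Hspa1b shares 62.3% of its transcript with Hspa1a, Mnda 72.9% with Ifi205, Psme2 59.3% with Psme2b and Rps20 41.3% with Gm4332 and other genes, so their values are uncertain.

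Of the 5 remaining genes, BC006779 (now Helz2, an interferon-induced helicase) had 4.9, 5.02, 6.79, 18.3 and 32.9 RPKM in cytoplasmic RNA, against 6.25, 9.82, 31.7, 46.1 and 169.5 RPKM in chromatin RNA. Abtb2 had 0.0986, 0.183, 0.201, 0.458 and 5.41 RPKM in cytoplasmic RNA, nearly all of the change falling after 60 min. Trim36, a ubiquitin ligase, and 9030625A04Rik (now Lacc1, which bears on macrophage metabolism) also rose in cytoplasmic RNA, as did these 2. The noncoding 6530402F18Rik stayed at or below 1.48 RPKM there and did not pass the test (adjusted p = 0.471).

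Where a gene reached 4-fold in both cytoplasmic and chromatin RNA, the first time it did so could be compared. Of 46 such class D genes, 21 (45.7%) were past it earlier in chromatin RNA, 21 at the same time and 4 (Filip1l, Rnd3, Kpna3 and Gja1) later. Over all 356 genes past 4-fold in both, 43.0% were earlier in chromatin RNA, a share close to that of class D. After rescaling, 40 of 55 class D genes (72.7%) were earlier in chromatin RNA, 15 at the same time and 0 later, against 50.8% earlier among all 486 genes past 4-fold in both, so the result depends on scale. Another 15 class D genes reached 4-fold in chromatin RNA but not in cytoplasmic RNA, and 1 the reverse.

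The 2 kinds of chromatin value did not peak together in every gene. The exon value was highest later than the whole-gene value in 16 of the 69 genes, at the same time in 53 and earlier in 0. The 16 genes included Hivep2, Malt1, Peli1, Ripk2, Cish, Nod2, Fas and Src. They were long, with a median of 40626 bases, against 16298 bases for the other 53, although the ranges overlapped (5274 to 184996 against 951 to 249728 bases). By exon values, 12 genes were highest at 60 min and not at 120 min, among them Fnbp1l, Rnd1, Rapgef2, Pcdh7, Mt2, Nfil3, Tiparp and Trim36.

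The share of a gene's reads that lay in introns could be had for 43 class D genes in cytoplasmic, 47 in nucleoplasmic and 51 in chromatin RNA, where the 2 tables had the same accession and the gene at least 20 reads in each library. At 0, 15, 30, 60 and 120 min the median intron share was 6.28%, 9.82%, 11.2%, 3.51% and 3.29% in cytoplasmic RNA. In nucleoplasmic RNA it was 16.3%, 30.0%, 33.9%, 28.6% and 15.3%, and in chromatin RNA 71.9%, 76.5%, 76.1%, 74.4% and 67.7%. The nucleoplasmic share doubled by 30 min and was back at its start by 120 min. It was above its 0 min value in 45, 46 and 44 of 47 genes at 15, 30 and 60 min and in 28 at 120 min. The same counts were 65, 55, 42 and 20 of 67 genes in class C and 53, 53, 62 and 49 of 65 in class E. An early gain was thus not particular to class D.

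Several single genes followed the course of the median, but not every gene did. In nucleoplasmic RNA the intron share of Peli1 was 45.9%, 56.9%, 81.7%, 63.8% and 34.7%, and that of Ripk2 was 20.2%, 62.4%, 65.1%, 35.5% and 17.4%. That of Hivep2 was 20.8%, 43.9%, 68.3%, 67.6% and 14.4%, and that of Malt1 was 23.5%, 43.7%, 69.6%, 53.1% and 24.4%. Mmp13, a gene of 10821 bases, had 1.32%, 9.99%, 12.8%, 2.55% and 1.12%. Across the 47 genes the gain in nucleoplasmic intron share went with gene length (Spearman correlation 0.64 at 30 min and 0.49 at 60 min), and in chromatin RNA it did not (-0.07 and 0.02 over 51 genes). Genes of 1 library share its depth and are not independent, so these are descriptions.

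The time of the highest nucleoplasmic intron share was not the same in each class. It was highest at 30 min in 24 of the 47 class D genes, at 15 min in 47 of 67 class C genes and at 60 min in 37 of 65 class E genes. The class C medians were 13.0%, 41.9%, 26.8%, 12.8% and 9.4%, and the class E medians 7.96%, 18.6%, 18.9%, 23.3% and 12.8%. The classes were set on the course of chromatin RNA, whose reads lay largely in introns, so this order is not separate from that sorting. It is a description, and no test of the difference was made. The median whole-gene length was 23564 bases for the 69 class D genes, 9457 bases for class C and 15563 bases for class E.

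**Figure D4:**
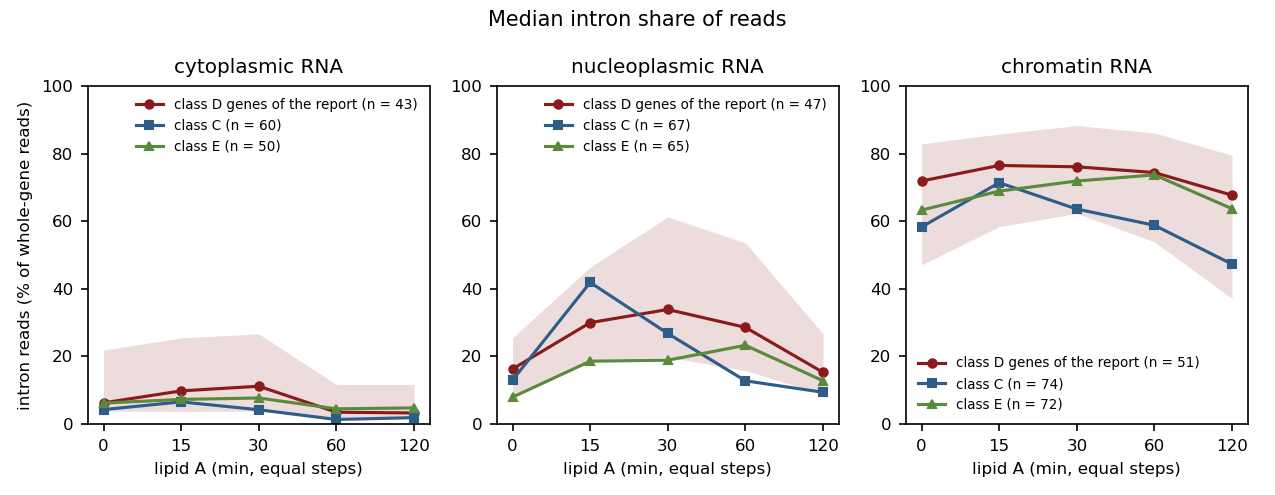
Median share of whole-gene reads that lay in introns, in percent (y), against minutes of lipid A (x, equal steps) for the class D genes, class C and class E in the 3 fractions; the shaded band is the range from the 25th to the 75th percentile of the class D genes. In nucleoplasmic RNA class C is highest at 15 min (41.9%), class D at 30 min (33.9%) and class E at 60 min (23.3%). The classes were set on the course of chromatin RNA.

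Levels were then compared between fractions over the 5 times, with limma on all 15 libraries and time as a term, calling a difference at adjusted p under 0.05 and 2-fold. In cytoplasmic against chromatin RNA, 26 of 67 class D genes differed (background 45.9%): 8 were higher (background 40.7%) and 18 lower (background 5.14%). In nucleoplasmic against chromatin RNA, 15 of 67 differed (background 46.3%): 12 were higher (background 44.1%) and 3 lower (background 2.28%). Chromatin RNA set the class and is 1 side of both contrasts. The choice of genes could thus raise that side in class D but not in the background, and its part was not tested. RPKM is relative to each library, and the listed exons took 28.13% to 44.17% of cytoplasmic, 54.55% to 60.82% of nucleoplasmic and 20.6% to 27.15% of chromatin reads. Without a time term 9 and 7 genes differed. After each library was centred on its median, 4 were higher and 38 lower in cytoplasmic RNA and 1 was higher and 21 lower in nucleoplasmic RNA, so the split depends on the scaling.

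The genes higher in cytoplasmic RNA were Prdx5, Mt2, Isg15, Trex1, Nfil3, Kpna3, Rps20 and Car13. Prdx5 led with a log2 difference of 2.39 ± 0.25 (limma adjusted p = 8.42e-09), Mt2 followed with 1.87 ± 0.22 (3.8e-08) and Isg15 with 1.85 ± 0.23 (8.26e-08). Farthest below chromatin RNA stood C3 at -2.15 ± 0.23 (limma adjusted p = 1.01e-08), Pcdh7 at -1.87 ± 0.20 (1.47e-08) and Aoah at -1.76 ± 0.22 (1.63e-07). The first 3 are short genes, of 951 to 2828 bases, and the last 3 span 11446 to 230129 bases. The other called genes did not all follow this: Kpna3, of 74761 bases, was also higher, and Gpr85, of 4776 bases, was lower.

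LCG genes had the larger ratios. Median whole-gene chromatin RNA at 0 min was 0.851 RPKM in the 40 CpG genes and 0.437 RPKM in the 29 LCG genes, and the median ratio of the highest value to 0 min was 8.15 and 26.4. The whole-gene value was highest at 60 min in 20 CpG and 6 LCG genes and at 120 min in 19 and 22. These chromatin values set the class. In the fractions that did not, the median log2 ratio at 120 min was 2.45 in CpG and 2.88 in LCG genes for cytoplasmic RNA, and 2.48 and 3.16 for nucleoplasmic RNA. The spread within each type covered most of the other, and no test was made. CpG promoters made up 58.0% of the 69 genes, 58.2% of class C, 51.7% of class E and 55.4% of all 560 genes. They made up 48.5% of the 97 class D genes before symbols were set aside. The 69 genes are a set left by symbol and not a random sample, and these shares were not tested.

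**Figure D5:**
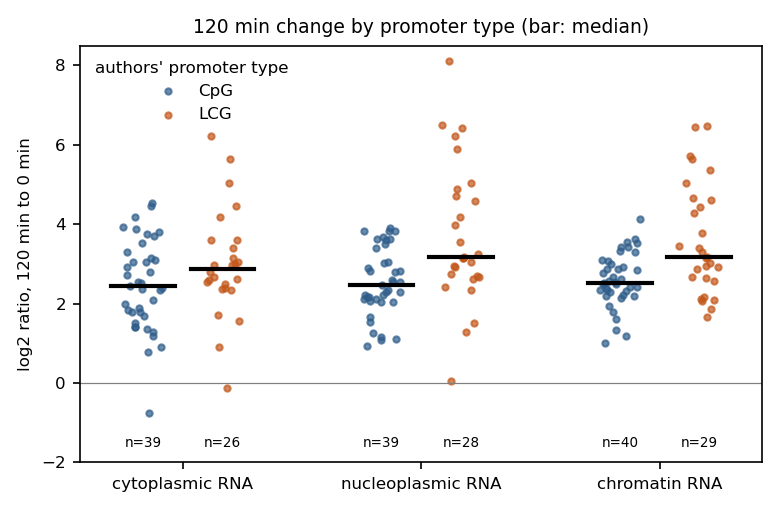
Log2 ratio of 120 min to 0 min (exon RPKM + 0.5, y) of the class D genes with CpG and LCG promoters, as typed by the authors, in cytoplasmic, nucleoplasmic and chromatin RNA; each point is a gene and each bar a median. The medians are 2.45 and 2.88, 2.48 and 3.16, and 2.52 and 3.17 (CpG and LCG in each fraction), and the points of the 2 types overlap in every panel.

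Other genes of the pathways that act on or beside class D were followed with the same slope test. Of 21 listed NF-kappaB pathway genes, 11 rose in cytoplasmic RNA and 7 in nucleoplasmic RNA and none fell. None is among the 69, but symbols starting with Nfkb, Rel or Tn, and genes such as Bcl3 and Myd88, were set aside by name. The absence of many of the list was thus fixed beforehand, and some may be class D genes. The median log2 ratio of the list at 120 min was 2.11 and 1.73, beside 2.63 and 2.81 for the 69 genes and -0.49 and -0.47 for all genes. Of 16 interferon pathway genes, which include Isg15, 4 and 2 rose. Of 12 survival and death genes, which include Fas, Casp4 and Ripk2, 5 and 4 rose. Of 11 genes of the immunoproteasome and peptide loading, Psme2 alone rose, in nucleoplasmic RNA, and of 10 redox genes, which include Prdx5, 1 and 2 rose. The 120 min medians of the immunoproteasome list were 0.73 and 0.75, and those of the redox list -0.35 and -0.2.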

How the data were processed

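RNA of 3 fractions of mouse macrophages at 5 times was measured in 15 strand-specific libraries. Reads were aligned with TopHat to mm9, per the submitters' processing notes. How reads were counted, and what became of those that match several places, is not given in the sources used here. RPKM values were deposited, per the file headers, in a table of 10020 transcripts (relative to exon length) and in one of 560 classed genes (relative to the whole gene, as the lengths that give whole reads show). Values of 1 of the 69 genes are counted but not reported here by gene. Another table of chromatin values was not used, nor were 3 columns of per-sample values that match no sample. Whole reads were recovered for 99.99% and 100% of genes (tolerance 0.02 reads); a value without reads stands in the first table at the worth of 0.0191 RPM.

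Ratios were taken on log2(RPKM + 0.5) against 0 min of the same fraction, among genes at 1 RPKM in at least 1 library of it, and called at 4-fold. With 1 library per fraction and time this is no test. limma 3.58.1 (R 4.3.3, trended prior, Benjamini-Hochberg over all genes) gave the slope over time steps 0 to 4 and, among genes at 1 RPKM in at least 3 libraries, the fraction difference. Both were tested on simulated data. p-values measure scatter about a line or between times, which may be technical. Other tables used Python 3.11.15, numpy 2.4.6, pandas 2.3.3, scipy 1.17.1 and matplotlib 3.10.9. Promoters and current names are from RefSeq (GRCm38.p6); shared sequence is the share of 50-base stretches found in GENCODE transcripts of other genes.

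The genes and lists were chosen with earlier results of these data known. Named genes are the 10 with the largest ratio in each fraction, the 5 with the highest cytoplasmic value at 120 min and the 5 with the smallest cytoplasmic ratio, up to 8 not highest at 120 min in chromatin RNA, the 5 with the smallest slope p in each of 2 fractions, the 3 most positive and 3 most negative cytoplasmic differences, and others by role. Alternatives were other pseudocounts, rescaled or centred libraries, no filter, 3-fold calls, the whole-gene table, other time scales, another prior, no time term and leaving out each time.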

Additional observations from a re-analysis of the deposited data

Results flagged for a closer look

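Rps20, a protein of the small ribosomal subunit, was the single class D gene whose 120 min value lay on opposite sides of 0 min in different fractions beyond counting error. Its RPKM ratio of 120 min to 0 min was 0.561 in cytoplasmic RNA (95% counting interval 0.353 to 0.883; 35 against 49 reads), 2.52 in nucleoplasmic RNA (1.59 to 4.14; 75 against 25 reads) and 9.07 in chromatin RNA (5.67 to 15.3; 153 against 20 reads). After rescaling to the median of all genes the cytoplasmic ratio was 0.788 (0.496 to 1.24), an interval that holds 1, so the opposite direction depends on scale. The difference between fractions was not tested, since each ratio rests on 2 libraries. Of the Rps20 transcript, 41.3% is shared with other annotated genes, and its cytoplasmic levels of 3.51 to 8.54 RPKM are low beside those of Prdx5 or Trex1. The part of shared sequence in the result was not tested.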

How the results depend on the processing

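No paired analysis was possible because each fraction and time has 1 library and the labels give no replicate numbers that groups could share; time as a term is the only pairing. Counts of rising or 4-fold higher genes take in a single direction, so they could change in size but not turn. The split between fractions could turn and did. After centring, 1 gene was higher and 21 were lower in nucleoplasmic against chromatin RNA, in place of 12 and 3. Counts that moved by over 1.5 times were these. By whole-gene values, 25 cytoplasmic and 36 nucleoplasmic genes were higher by 4-fold, and without the 120 min library 31 and 28. After rescaling, 40 genes passed 4-fold earlier in chromatin than in cytoplasmic RNA, 1 rose in cytoplasmic and 20 in nucleoplasmic RNA. With time in minutes 65 genes rose in nucleoplasmic RNA (background 8.48%), and with its square root 0 by limma. At an unadjusted limma p under 0.05 the square root gave 65 (background 8.03%). Leaving out 1 time gave 8 to 48 rising genes in cytoplasmic and 0 to 14 in nucleoplasmic RNA. Without a time term 9 genes differed in cytoplasmic and 7 in nucleoplasmic against chromatin RNA, and 42 differed in cytoplasmic RNA after centring. The cause of these moves was not tested. Other pseudocounts, no filter, 3-fold calls and another prior moved no count over the whole class by over 1.5 times. Among role counts, a pseudocount of 0.1 left 5 signalling genes and 1 of the remaining genes rising in nucleoplasmic RNA, in place of 9 and 3, and with no filter 5 metabolic genes rose in cytoplasmic RNA, in place of 3. Genes under about 1 RPKM rest on few reads.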

Other observations

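At 120 min, some class D genes had far more RPKM in nucleoplasmic than in cytoplasmic RNA. A 4-fold excess (log2 ratio of RPKM + 0.5 of 2 or more) was seen in 19 of 67 class D genes, or 28.4%, against 11.6% of the 8089 genes at 1 RPKM in either library. It was seen in 5 of 6 secreted and matrix genes and 7 of 10 surface and adhesion genes, but in 0 of 10 genes of the cytoskeleton and membrane traffic and 0 of 6 factors of transcription and RNA control. C3 had 368.6 RPKM in nucleoplasmic and 22.1 RPKM in cytoplasmic RNA, Vcam1 57.7 and 3.76 RPKM, and Nox1 12.6 and 0.655 RPKM. Others past 4-fold included Pcdh7, Mmp13, Gpr126, Itgal, Mmp14, Ch25h, Fas, Pvrl2, Aoah, H2-M2, Gja1, Lass6, Slamf7, Edn1 and BC006779. The pattern was noticed in these values, has 1 library a side and was not tested.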
